A study of Rattus norvegicus with 6 samples.

Results

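The genes described here are complement components and regulators: C3, CFB, CFD, CFI, CD55, CD59 and SERPING1, measured in isolated rat glomeruli. They were chosen as the Ensembl gene IDs that carry one of 8 complement symbols in the authors' deposited tables, which list human symbols in capitals. Of the 8 symbols, 7 were paired with 1 gene ID each, out of 26319 gene IDs in the count table. The eighth symbol, C2, was paired with no gene ID in those tables and is not analysed here.

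Complement is a cascade of plasma and tissue proteins in which C3 is cleaved by convertases into C3a, a signalling peptide, and C3b, which binds to nearby surfaces. In the alternative pathway, C3b pairs with factor B (CFB), which factor D (CFD) cleaves to form the convertase, and properdin stabilises it. Host cells limit the cascade with factor I (CFI), which inactivates C3b, with CD55, which dissociates convertases, with CD59, which blocks the membrane attack complex, and with the C1 inhibitor SERPING1. In the kidney the glomerular filter lies directly in the blood stream, and podocytes and endothelial cells carry such regulators.

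Glomeruli, the filtering units of the kidney, came from Sprague Dawley rats in 3 groups of 2 libraries. Wild-type rats given vehicle (WT) were 20.4 and 21.9 weeks old. Rats of genotype AT1R Tg given vehicle were 20.4 and 17.4 weeks old, and rats of genotype AT1R Tg given AC1903 were 23.0 and 20.4 weeks old. AT1R is the angiotensin II type 1 receptor, and AC1903 is known as an inhibitor of the calcium-permeable channel TRPC5. Below, the vehicle group and the AC1903 group are these transgenic rats. The published AT1R Tg rat carries the receptor under a podocyte (nephrin) promoter. The labels give neither the promoter nor the dose or length of treatment. Comparing AT1R Tg vehicle with WT asks how glomeruli of the transgenic rats differ, and comparing AC1903 with vehicle asks how treated transgenic rats differ from untreated ones. There is no AC1903 group in WT rats.

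The libraries held between 12325515 and 36026772 expected counts, and both WT libraries were deeper than the others. Levels are given as CPM, a gene's counts relative to its library's total after TMM scaling, which corrects that total for differences in composition. The pairs of values below are replicate 1 and then replicate 2. CPM is not corrected for transcript length, so levels of different genes are not compared. Summed levels of 17 podocyte markers ran from 10600 to 19610 CPM, so the libraries hold glomerular RNA. Those of 19 proximal tubule markers were 4991 and 3048 CPM in WT, 7083 and 13600 in the vehicle group and 7460 and 7324 in the AC1903 group. None of the podocyte or proximal tubule markers was at 0 in any library. Mitochondrially encoded genes took 22.3% to 40.5% of counts, the highest share being in vehicle replicate 2. In bulk tissue, fewer cells of a type and less RNA per cell cannot be told apart. Nothing in the labels says how many rats stand behind a library, so p-values measure the spread between these libraries.

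C3 had its highest level in 1 of the AC1903 libraries. C3, the central component of the cascade, measured 2.69 and 2.90 CPM in WT, 1.49 and 4.15 in the vehicle group and 4.24 and 13.9 in the AC1903 group. Both AC1903 libraries lay above the other 4, but AC1903 replicate 1 did so by little. Exact 95% intervals of 3.16 to 5.58 CPM for AC1903 replicate 1 and 3.09 to 5.46 CPM for vehicle replicate 2 overlapped almost wholly. Such intervals cover counting error only. They ran from 11.9 to 16.1 CPM for AC1903 replicate 2, clear of the other libraries.

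For C3 the log2 change of AC1903 against vehicle was 1.70 (SE 0.65, 95% interval 0.22 to 3.18), a 3.24-fold difference. In edgeR's quasi-likelihood test its p was 0.0295 unadjusted and 0.602 after Benjamini-Hochberg adjustment across the whole table, so it did not pass. The log2 change was 0.55 without AC1903 replicate 2, and leaving out vehicle replicate 1 or 2 gave 1.13 or 2.60. Adding age in weeks to the edgeR fit gave 3.01 (adjusted p = 0.714). Against WT the log2 change of AC1903 was 1.70 (SE 0.63, edgeR adjusted p = 0.400), and 0.59 without the same library. Both comparisons use the same AC1903 libraries. With no filter on low counts C3 passed in this comparison, at a log2 change of 1.68 and an adjusted p of 0.0350 in edgeR. That setting called far more of all genes than the main fit. For AT1R Tg vehicle against WT the log2 change was 0.00 with a 95% interval of -1.63 to 1.63, which leaves room for a difference of 3-fold in either direction.

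CFB, the alternative pathway partner of C3b, measured 8.36 and 14.3 CPM in WT, 7.43 and 10.3 in the vehicle group and 13.7 and 25.02 in the AC1903 group. The AC1903 libraries did not overlap with the vehicle libraries, while AC1903 replicate 1 lay between the WT libraries. The log2 change of AC1903 against vehicle was 1.13 (SE 0.38, 95% interval 0.27 to 2.00), or 2.19-fold. Its p was 0.0161 unadjusted and 0.568 adjusted in edgeR, and the log2 change was 0.60 without AC1903 replicate 2. Against WT the values were 0.77 (SE 0.37, edgeR adjusted p = 0.462) for AC1903 and -0.37 (SE 0.37, edgeR adjusted p = 0.769) for AT1R Tg vehicle. Leaving out WT replicate 2 turned the latter to 0.076.

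CFD, the protease that cleaves CFB, stood at 1.54 and 3.04 CPM in WT, 1.84 and 2.12 in the vehicle group and 2.16 and 1.92 in the AC1903 group. Its groups overlapped in all 3 comparisons, and the lowest and the highest library were both WT. The log2 changes were -0.22 (95% interval -1.47 to 1.04) for vehicle against WT and 0.05 (-1.25 to 1.35) for AC1903 against vehicle. With 24 to 112 counts per library, a log2 change of 1 in either direction lay within both intervals. The high AC1903 replicate 2 levels of C3 and CFB had no counterpart in CFD. However, the CFD interval for AC1903 against vehicle holds the CFB log2 change of 1.13. Whether the 3 activating components share a pattern thus cannot be told from these counts.

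Among the regulators, CD55 had the lowest fitted value in the transgenic rats. CD55, which speeds the decay of convertases on the cell surface, measured 140 and 111 CPM in WT, 95.04 and 42.7 in the vehicle group and 61.1 and 87.9 in the AC1903 group. All 4 transgenic libraries lay below both WT libraries, and vehicle replicate 2 was the lowest. The log2 change of vehicle against WT was -0.86 (SE 0.35, 95% interval -1.66 to -0.07), with an unadjusted p of 0.0365 and an adjusted p of 0.364 in edgeR. CD55 passed the edgeR test without vehicle replicate 1, the higher of the pair (log2 change -1.56, adjusted p = 0.0296). It also passed in edgeR with no filter on low counts (-0.86, adjusted p = 0.0162), a setting that called far more of all genes than the main fit. Without vehicle replicate 2 the log2 change was -0.40 (edgeR adjusted p = 0.650). AC1903 against WT gave -0.75 (SE 0.35, edgeR adjusted p = 0.458).

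Between vehicle and AC1903, CD55 had a log2 change of 0.11 with a 95% interval of -0.68 to 0.91, and its libraries overlapped. The summed podocyte markers were 19610 and 10600 CPM in vehicle replicates 1 and 2, so the CD55 level and the podocyte sum were both lower in replicate 2. In the same pair of libraries the proximal tubule sum and the mitochondrial share were higher in replicate 2. Their part in the CD55 values was not tested.

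CD59, the membrane-bound block on the terminal complex, varied least of the 7 genes. It measured 340 and 324 CPM in WT, 290 and 261 in the vehicle group and 301 and 272 in the AC1903 group, so its highest library was 1.302 times its lowest. The WT libraries were again above all 4 transgenic ones. The log2 changes were -0.27 (SE 0.16, edgeR adjusted p = 0.584) for vehicle against WT and -0.21 (SE 0.16, edgeR adjusted p = 0.655) for AC1903 against WT. AC1903 against vehicle gave 0.06 with a 95% interval of -0.32 to 0.43.

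SERPING1, the inhibitor of the C1 proteases and of kallikrein, measured 31.9 and 37.5 CPM in WT, 30.5 and 26.5 in the vehicle group and 34.4 and 36.1 in the AC1903 group. The vehicle libraries were the lowest and the AC1903 libraries lay within the WT range. The log2 changes were -0.28 (SE 0.17, edgeR adjusted p = 0.582) for vehicle against WT and 0.31 (SE 0.17, edgeR adjusted p = 0.664) for AC1903 against vehicle. AC1903 against WT gave 0.03 with a 95% interval of -0.37 to 0.42.

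CFI, the protease that inactivates C3b, had few counts. It measured 0.754 and 0.569 CPM in WT, 1.203 and 1.63 in the vehicle group and 1.41 and 0.240 in the AC1903 group. Both vehicle libraries lay above both WT libraries, whereas AC1903 replicate 1 lay within the vehicle range and replicate 2 below all others. The value of AC1903 replicate 2 rests on 3 counts, with an exact 95% interval of 0.0495 to 0.701 CPM. The log2 change of vehicle against WT was 1.09 (SE 0.88, 95% interval -0.91 to 3.10, edgeR adjusted p = 0.692). For AC1903 against vehicle it was -0.77 (SE 0.91), -0.036 without AC1903 replicate 2 and -2.57 without AC1903 replicate 1.

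**Figure D1:**
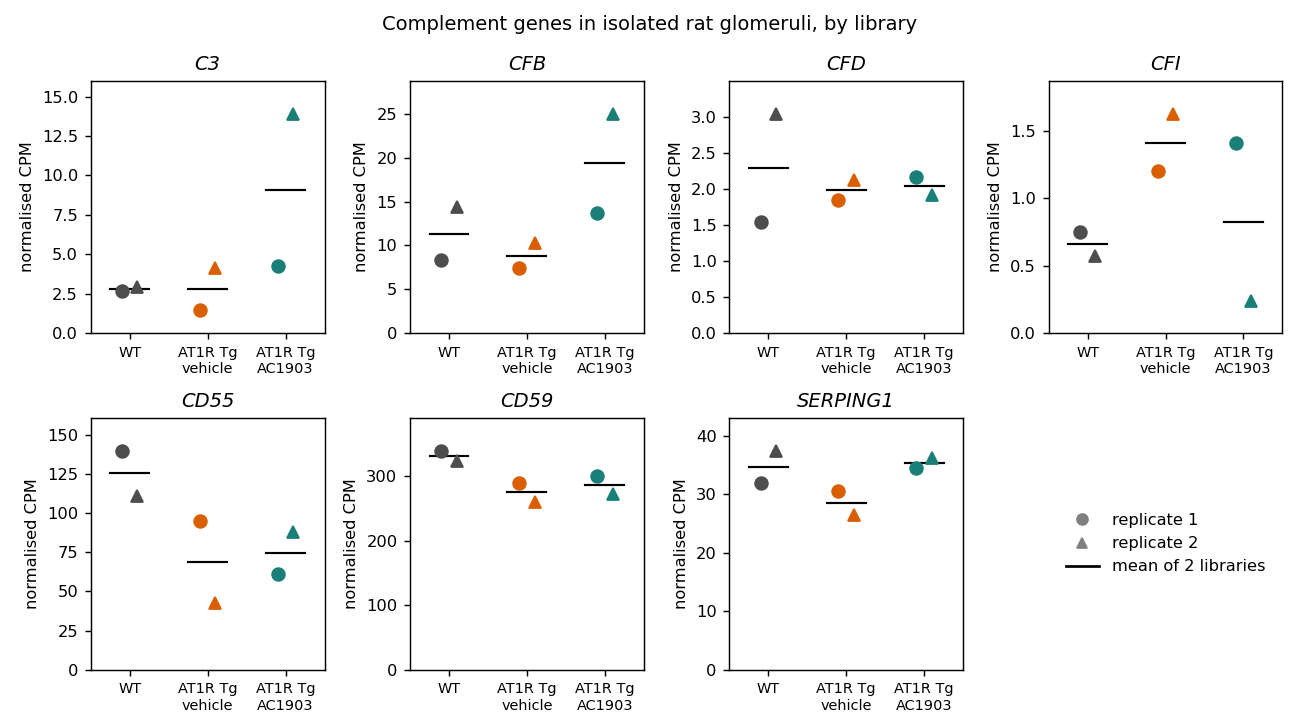
Normalised CPM (vertical axis, linear from 0, a scale for each gene) of the 7 complement genes in the 3 groups; circles are replicate 1, triangles replicate 2 and bars the mean of 2 libraries. C3 reaches 13.9 CPM in 1 AC1903 library, and CD55 lies below both WT libraries in all 4 transgenic libraries.

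The plot of levels by library shows how far single libraries set the group means. In AC1903 the replicates differed 5.90-fold for CFI, where replicate 2 held 3 counts, 3.28-fold for C3 and 1.82-fold for CFB. In AT1R Tg vehicle they differed 2.79-fold for C3 and 2.23-fold for CD55, and in WT 1.97-fold for CFD. CD59 replicates differed by no more than 1.11-fold in any group.

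Counted over the 7 genes, none was called in any comparison at an adjusted p under 0.05, by edgeR, DESeq2 or limma-voom. In vehicle against WT, edgeR called 0.0745% of all genes tested, limma-voom 0.0521% and DESeq2 4.22%. At an unadjusted p under 0.05 edgeR gave 1 of the 7 (CD55, lower) against 11.9% of all genes. For AC1903 against vehicle, edgeR and limma-voom each called 0.0% of all genes and DESeq2 0.423%, and 2 of the 7 (C3 and CFB, both higher) had an unadjusted edgeR p under 0.05, against 8.12% of all genes. In AC1903 against WT, edgeR called 0.0372%, limma-voom 0.0521% and DESeq2 1.28%, and 1 of the 7 (C3, higher) had an unadjusted edgeR p under 0.05, against 11.1%.

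Genes whose groups did not overlap were counted too. In vehicle against WT, 1 of the 7 (CFI) was higher in both vehicle libraries and 3 (CD55, CD59 and SERPING1) were lower, where 20.6% of all genes were higher and 23.3% lower in this way. Between AC1903 and vehicle, 3 (C3, CFB and SERPING1) were higher and 0 lower, against 19.9% and 18.4% of all genes. In AC1903 against WT, 1 (C3) was higher and 2 (CD55 and CD59) were lower, against 24.2% and 23.4%. The median log2 change of the 7 genes was -0.27, 0.11 and 0.03 in the 3 comparisons in that order, where all genes tested had -0.03, -0.02 and 0.00. These medians turned sign with single libraries: the first was 0.054 without WT replicate 2, and the third -0.27 without AC1903 replicate 1, -0.091 without WT replicate 1 and -0.017 without AC1903 replicate 2. The second ran from 0.096 to 0.41 without 1 library, the highest without vehicle replicate 1. The comparisons share libraries, so their values are not independent of each other.

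**Figure D2:**
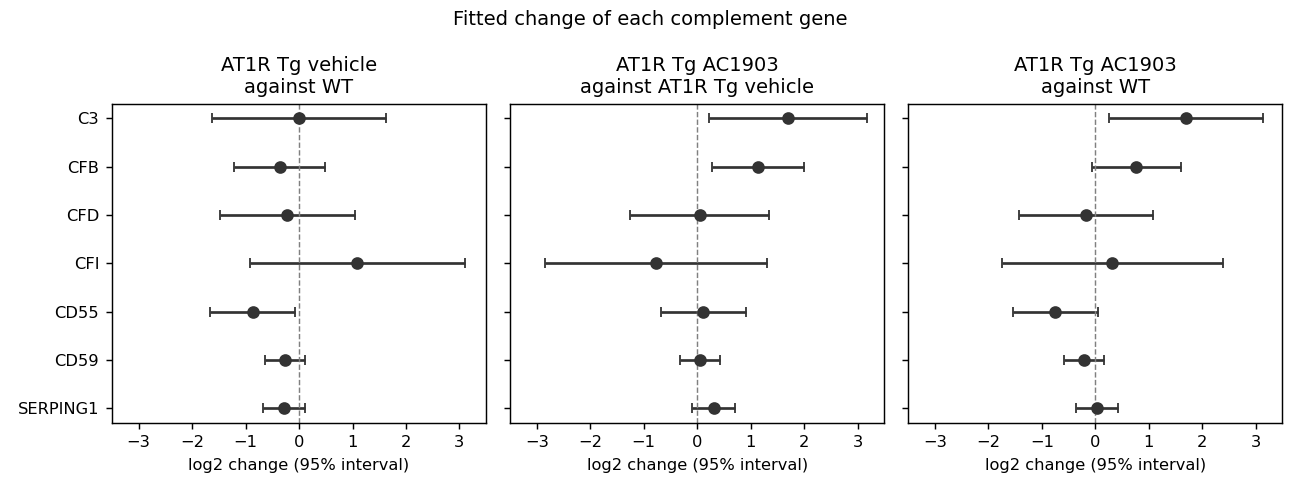
Fitted log2 change (horizontal axis) of the 7 complement genes in the 3 comparisons; points are edgeR estimates and bars 95% intervals of single genes, unadjusted. The intervals of C3 and CFB for AC1903 against vehicle of C3 for AC1903 against WT and of CD55 for vehicle against WT lie to 1 side of 0, and no gene passed after adjustment.

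The plot of fitted changes shows that the precision differed widely between the genes. CD59 and SERPING1 had SEs of 0.16 to 0.17 on the log2 scale, whereas CFI had 0.88 to 0.91. In the authors' deposited table for AC1903 against vehicle, C3 had a log2 fold change of 1.69 (adjusted p = 0.429) and CFB 1.13 (adjusted p = 0.334). In the authors' deposited table for AT1R Tg vehicle against WT, CD55 had a log2 fold change of -0.84 (adjusted p = 0.214) and CFI 1.12 (adjusted p = 0.764). Those tables hold adjusted p-values under 0.05 for 46 of 12182 genes and 545 of 12321 genes, and for none of the 7 complement genes.

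The upstream sequences of C3 and Cd55 are shown because these genes carry the widest differences among the components and the surface regulators. RefSeq promoter windows (build GRCr8, 250 bases before to 50 after the start) were found for 4 of the 7 genes, C3, Cd55, Cfd and Cfi. The 250 bases before the start are printed 5′ to 3′ on the gene's strand. They lie at chr9:2201340-2201589 (minus strand) for C3 and chr13:44438102-44438351 (minus strand) for Cd55. Capitals mark a match to the C/EBP core motif TTNNGCAA, which here lies on the opposite strand.
C3: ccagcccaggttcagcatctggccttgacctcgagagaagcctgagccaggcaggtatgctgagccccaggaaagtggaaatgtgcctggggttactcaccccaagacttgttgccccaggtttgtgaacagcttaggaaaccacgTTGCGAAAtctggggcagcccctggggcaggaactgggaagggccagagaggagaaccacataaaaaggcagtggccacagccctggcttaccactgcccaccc
Cd55: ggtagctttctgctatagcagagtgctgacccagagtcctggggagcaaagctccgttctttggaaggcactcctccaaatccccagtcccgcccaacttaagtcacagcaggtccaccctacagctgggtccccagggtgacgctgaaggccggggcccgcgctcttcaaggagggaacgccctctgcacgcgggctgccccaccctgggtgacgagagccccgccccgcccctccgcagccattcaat

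The match in C3 begins at position -104 relative to the start, and the other 3 windows held none. This motif was searched after the data had been seen, on both strands, and 10.6% of 33469 promoter windows hold it. The interferon-type motif ISRE (GAAANNGAA) is in 9.71% of windows, the STAT-type motif GAS (TTCNNNGAA) in 8.87% and the kappaB motif in 5.02%. On both strands these 3 motifs gave no match in the 4 windows. ISRE, GAS and C/EBP core matches were counted separately and may overlap in a window. In GRCr8, C2 and Cfb are neighbouring protein-coding genes.

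Of 50 other complement symbols, 30 were paired with 29 gene IDs, and all of these were tested. None passed the edgeR test in any comparison. DESeq2 called 1 of the 29, in vehicle against WT, an ID that carries both C4A and C4B. In that comparison it called 4.22% of all genes. In vehicle against WT 13 of the 29 fitted values were positive and 16 negative, with a median log2 change of -0.11, but without WT replicate 2 18 were positive and the median was 0.21. In AC1903 against vehicle 15 were positive and 14 negative (median 0.12, and -0.057 without AC1903 replicate 2). In AC1903 against WT 20 were positive and 9 negative (median 0.30), and the median was 0.13 without AC1903 replicate 1, 0.14 without AC1903 replicate 2 and 0.19 without WT replicate 1. At an unadjusted edgeR p under 0.05 there were 4 higher and 0 lower, 4 higher and 1 lower, and 3 higher and 0 lower, in the same order. The shares over all genes tested were 11.9%, 8.12% and 11.1%, so the count in vehicle against WT and that in AC1903 against WT lie near the background.

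C4 is the classical and lectin pathway component that forms the C3 convertase with C2. The ID carrying both names (ENSRNOG00000047657) measured 4.88 and 3.49 CPM in WT, 9.45 and 17.1 in the vehicle group and 6.47 and 4.33 in the AC1903 group. The vehicle libraries were the highest, and AC1903 and WT overlapped. Its log2 change of vehicle against WT was 1.67 (SE 0.39, edgeR adjusted p = 0.178, DESeq2 adjusted p = 0.00765). AC1903 against vehicle gave -1.30 (SE 0.39), with an unadjusted p of 0.00997 and an adjusted p of 0.549 in edgeR.

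Other C4 gene IDs showed smaller fitted values in vehicle against WT. C4A (ENSRNOG00000030729) had a log2 change of 0.78 (edgeR adjusted p = 0.342) and C4B (ENSRNOG00000000443) one of 1.00 (edgeR adjusted p = 0.429). C4 copies are nearly identical, and RSEM divides reads among them, so the split between these IDs is uncertain. For C4B, WT replicates already differed, at 11.98 and 4.38 CPM.

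C5, the start of the terminal pathway, measured 16.4 and 6.78 CPM in WT, 17.5 and 58.5 in the vehicle group and 27.3 and 26.9 in the AC1903 group. All transgenic libraries lay above WT, and vehicle replicate 2 stood far above the rest. Its log2 change of vehicle against WT was 1.71 (edgeR adjusted p = 0.241), 0.60 without vehicle replicate 2 and 2.34 without vehicle replicate 1 (edgeR adjusted p = 0.0296). The proximal tubule sum given above had its lowest and highest values in the same libraries as C5, and its part in the C5 values was not tested. CPN1, a subunit of the carboxypeptidase that inactivates C3a and C5a, had a log2 change of 1.01 in vehicle against WT (edgeR adjusted p = 0.331).

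Of the receptors for complement fragments, C3AR1, C5AR1, ITGAM and ITGAX had their highest levels in AC1903 replicate 2, and C5AR2 did not. The ID that carries both CR1 and CR1L is not counted among these receptors here. CR1/CR1L measured 243 and 217 CPM in WT, 214 and 169 in the vehicle group and 223 and 193 in the AC1903 group. Its vehicle libraries lay below both WT libraries, with a log2 change of -0.26 (SE 0.18, edgeR adjusted p = 0.636). C5AR2, a second receptor for C5a, and CR1/CR1L lie outside the rule for named genes and were named after their values were seen. C5AR2 measured 5.10 and 9.35 CPM in WT, 5.80 and 2.69 in the vehicle group and 9.15 and 3.60 in the AC1903 group. Its groups overlapped, and its highest library was WT replicate 2. C3AR1, the receptor for C3a, measured 0.610 and 1.301 CPM in WT, 0.495 and 1.22 in the vehicle group and 1.75 and 6.32 in the AC1903 group. C5AR1, a receptor for C5a, measured 2.19 and 4.04, 2.62 and 2.85, and 3.16 and 11.4 CPM in the same order. ITGAM, the alpha chain of complement receptor 3, measured 1.29 and 2.28, 0.142 and 1.87, and 1.66 and 11.5 CPM. In C3AR1, C5AR1 and ITGAM, AC1903 replicate 1 was far below replicate 2, and for ITGAM it was also below vehicle replicate 2.

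The log2 changes of AC1903 against vehicle were 2.24 for C3AR1 (edgeR adjusted p = 0.602), 1.42 for C5AR1 (edgeR adjusted p = 0.612) and 2.74 for ITGAM (edgeR adjusted p = 0.606). Without AC1903 replicate 2 they were 0.99 for C3AR1, 0.17 for C5AR1 and 0.70 for ITGAM. That of ITGAM was 5.47 without vehicle replicate 2. ITGAX, the alpha chain of complement receptor 4, measured 2.87 and 3.61 CPM in WT, 1.42 and 2.69 in the vehicle group and 5.66 and 6.56 in the AC1903 group. Its AC1903 replicates lay close together and above all other libraries. The log2 change of AC1903 against vehicle was 1.58 (SE 0.46, edgeR adjusted p = 0.549), and 1.43 without AC1903 replicate 2.

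CFP, properdin, which stabilises the alternative pathway convertase, measured 9.30 and 16.1 CPM in WT, 4.53 and 8.71 in the vehicle group and 11.2 and 24.5 in the AC1903 group. The vehicle libraries were the lowest. AC1903 against vehicle gave a log2 change of 1.44 (SE 0.47, edgeR adjusted p = 0.556), and 0.72 without AC1903 replicate 2. C1S, a protease of the C1 complex, measured 6.85 and 7.62 CPM in WT, 11.3 and 7 in the vehicle group and 10.5 and 19.7 in the AC1903 group. Its log2 change of AC1903 against WT was 1.06 (edgeR adjusted p = 0.385).

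**Figure D3:**
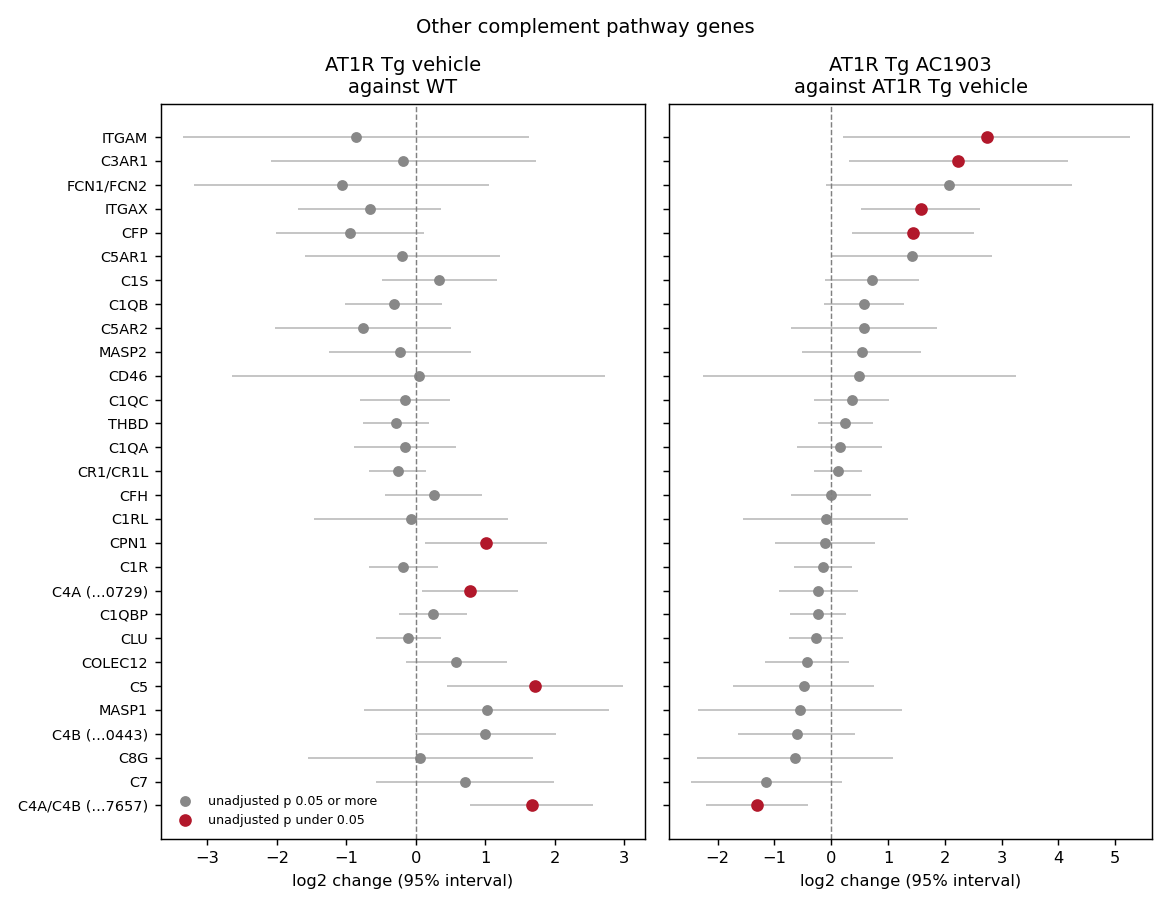
Fitted log2 change (horizontal axis) of 29 other complement gene IDs in the comparison of vehicle with WT and in that of AC1903 with vehicle, ordered by the latter; points are edgeR estimates, bars 95% intervals of single genes, and red marks an unadjusted p under 0.05. ITGAM, C3AR1, FCN1/FCN2, ITGAX and CFP lie at the top for AC1903 against vehicle and the ID for C4A and C4B at the bottom.

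As the plot of the other complement genes shows, most intervals spanned 0 in both comparisons. FCN1/FCN2, an ID for ficolins of the lectin pathway, named after its values were seen, had a log2 change of 2.07 in AC1903 against vehicle (edgeR adjusted p = 0.618). It was -0.60 without AC1903 replicate 2, where FCN1/FCN2 stood at 17.0 CPM, against 1.497 in AC1903 replicate 1. Genes with an unadjusted p under 0.05 in the comparison of vehicle with WT were the ID for C4A and C4B, C5, CPN1 and C4A, all with higher values in vehicle. Between AC1903 and vehicle they were ITGAX, CFP, C3AR1 and ITGAM, with higher values in AC1903, and the ID for C4A and C4B, with lower ones.

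The summed level of macrophage markers was highest in the same library as C3 and CFB. Of 18 macrophage symbols 15 gene IDs were tested, ITGAM among them, and their summed level was 255 and 415 CPM in WT, 229 and 298 in the vehicle group and 374 and 952 in the AC1903 group. The sum was highest in AC1903 replicate 2, as for C3, CFB, CFP, C3AR1 and C5AR1. Not every marker followed the sum. MARCO was highest in WT replicate 2, at 2.36 CPM, and measured 1.66 and 0.719 CPM in the AC1903 group. CCR2 was at 0 in vehicle replicate 1, and no other marker was at 0 in any library. In AC1903 against vehicle all 15 fitted values were above 0 and the median log2 change was 1.31, and 0.70 without AC1903 replicate 2.

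Of these 15 markers DESeq2 called 3 in AC1903 against vehicle, EMR1, CYBB and TYROBP, and edgeR called none (edgeR gave 8 an unadjusted p under 0.05). Over all genes DESeq2 called 0.423% in this comparison, and 8.12% had an unadjusted edgeR p under 0.05. EMR1, which encodes the macrophage surface protein F4/80, measured 4.74 and 7.40 CPM in WT, 4.88 and 5.13 in the vehicle group and 13.4 and 19.7 in the AC1903 group. Its AC1903 libraries were above the other 4, and its log2 change of AC1903 against vehicle was 1.73 (SE 0.33, edgeR adjusted p = 0.518, DESeq2 adjusted p = 0.00729). The macrophage list had a median of -0.31 in vehicle against WT, which ran from -0.60 without vehicle replicate 2 to -0.049 without WT replicate 2. In AC1903 against WT its median was 1.03, and 0.34 without AC1903 replicate 2. The complement genes C1QA, C1QB and C1QC, named after their values were seen, had smaller log2 changes of AC1903 against vehicle, at 0.15, 0.58 and 0.37. C1QA was highest in WT replicate 2 (26.1 CPM), C1QB in AC1903 replicate 2 (14.8 CPM) and C1QC in AC1903 replicate 1 (25.6 CPM). The part of the macrophage markers in the C3 and CFB values was not tested.

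**Figure D4:**
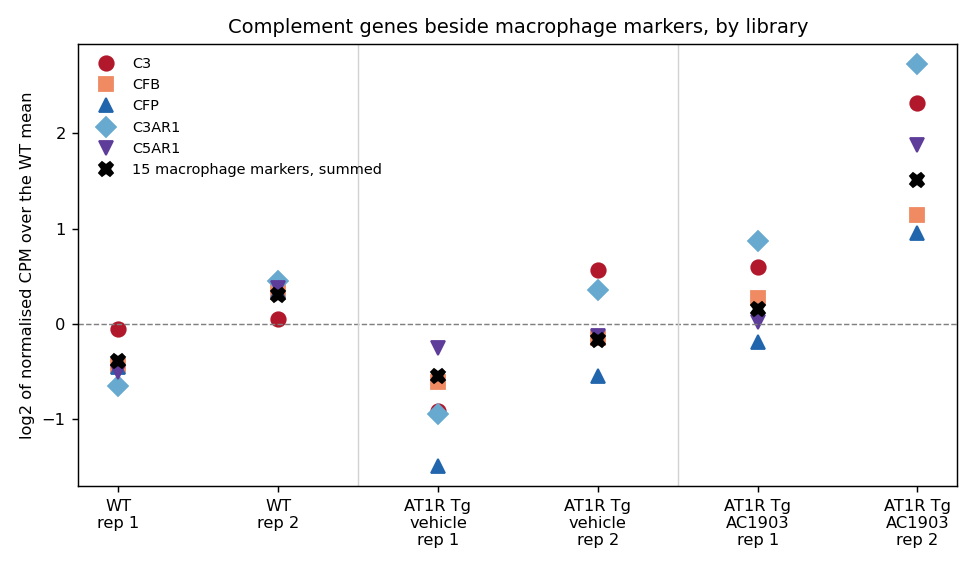
Level of C3, CFB, CFP, C3AR1, C5AR1 and the sum of 15 macrophage markers in each of the 6 libraries, as log2 of normalised CPM over the WT mean of the same item (vertical axis); each marker shape is a gene and black crosses are the sum. All 6 items are highest in AC1903 replicate 2. The genes plotted are a selection: C1QA, C1QC, C5AR2 and CFD, which are not plotted, were highest in other libraries.

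In the plot of complement genes beside macrophage markers, vehicle replicate 1 had the lowest values of CFB, CFP and the macrophage sum, and AC1903 replicate 2 the highest. C3 differed from the sum in vehicle replicate 2, where C3 was above its WT mean and the macrophage sum below. Across the 6 libraries C3 and CFB had a Pearson r of 0.90 on log2 CPM, CD55 and CD59 one of 0.78 and CFB and CFI one of -0.71. These values are descriptions over 6 libraries that share groups and scaling. C3 and CFD had an r of 0.01.

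Among 9736 other genes with a symbol and a mean of at least 5 CPM, those with the pattern most like C3 over the 6 libraries were WDFY1 (r = 0.991), FGR (r = 0.978), RASA3 (r = 0.977), WDR13 and CTBS. For CFB they were FCER1G (r = 0.990), DCAF4, HCLS1, RAC2 and CORO1A (r = 0.983). FGR, from the C3 list, and FCER1G, HCLS1, RAC2 and CORO1A, from the CFB list, are known as genes of blood-derived immune cells. WDFY1, RASA3, WDR13, CTBS and DCAF4 are not named as such here. For CFI, whose own counts are low, they were NGEF (r = 0.991), ACOT13, TRNAU1AP, NEDD1 and OXNAD1 (r = 0.975). Each list takes the highest of 9736 values over 6 libraries, so high r values can come from the search itself.

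Genes of pathways known to induce complement genes were described beside them. Of 31 interferon response genes 30 were tested, and in vehicle against WT 28 had negative fitted values with a median log2 change of -0.47. Of the same genes in AC1903 against vehicle 27 were positive with a median of 0.45, and in AC1903 against WT the median was -0.07. Their summed level was 1125 and 1380 CPM in WT, 829 and 1060 in the vehicle group and 1328 and 1294 in the AC1903 group, so the vehicle libraries were the lowest. None passed the edgeR test (at an unadjusted p under 0.05, 9 were lower in vehicle than in WT, and 9 were higher and 1 lower in AC1903 than in vehicle), and DESeq2 called 1, higher in AC1903 than in vehicle. Over all genes 11.9% and 8.12% had such a p in these comparisons, and DESeq2 called 0.423% in the latter. Without 1 library the interferon median ran from -0.75 to -0.30 in vehicle against WT, from 0.27 to 0.81 in AC1903 against vehicle and from -0.12 to 0.10 in AC1903 against WT. The outer values of the first and second came without a vehicle library, and those of the third without a WT library. Of 17 NF-kB and acute phase genes 15 had negative values in vehicle against WT (median -0.38, from -0.59 to -0.22 without 1 library) and 13 positive ones in AC1903 against vehicle (median 0.24, from 0.094 to 0.44 without 1 library). In AC1903 against WT the median was 0.06. None passed the edgeR test. At an unadjusted edgeR p under 0.05, 1 was lower in vehicle than in WT and 2 were higher in AC1903 than in vehicle. DESeq2 called 1, IL1B, higher in AC1903 than in vehicle (edgeR log2 change 3.01, DESeq2 adjusted p = 0.0244). IL1B measured 2.98 and 4.72 CPM in WT, 0.354 and 2.04 in the vehicle group and 5.07 and 13.8 in the AC1903 group.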

How the data were processed

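Polyadenylated RNA of isolated glomeruli was sequenced with a stranded kit, per the labels' protocols. The authors deposited expected counts per Ensembl gene, which were rounded to whole numbers. STAR 2.5.2b, RSEM 1.3.0 and the build Rnor_5.0 were used, per the submitters' processing notes, and no annotation release is named in those notes. Further tables deposited by the authors hold log2 fold changes and adjusted p-values, per the file headers, and the tool behind them is not named in the sources used here. Symbols come from those tables.

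Genes were tested two-sided by quasi-likelihood in edgeR 4.0.16 (R 4.3.3) on all 6 libraries, after filterByExpr (13426 genes left) and TMM scaling, with Benjamini-Hochberg adjustment, a threshold of 0.05 and 3 residual degrees of freedom. Alternatives were DESeq2 1.42.0, limma-voom (limma 3.58.1), other scalings and filters, a replicate block, age, and leaving out each library. DESeq2 and leave-one-out fits filter genes anew, so their gene totals differ. Scripts were tested on simulated data. No alternative scaling moved the median of all genes by over 0.1 on the log2 scale. Replicate counts differed well beyond sampling noise (chi-square per degree of freedom 19.0 to 92.8).

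The genes and lists were chosen with earlier results of these data known. The text names all 7 genes, the other complement genes past 0.05 in edgeR or DESeq2, the 6 of smallest edgeR p per comparison among those averaging 1 CPM or more, up to 3 markers of a list by p, and the 5 genes most like C3, CFB and CFI by Pearson r of log2 CPM (prior count 2).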

Additional observations from a re-analysis of the deposited data

How the results depend on the processing

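In vehicle against WT edgeR called 10 genes, DESeq2 534, edgeR with no filter on low counts 774, only the 2 groups compared 4 and age as a covariate 4, and leaving out 1 library gave 1 to 530. In AC1903 against vehicle edgeR called 0 (1090 at an unadjusted p under 0.05), DESeq2 62, no filter 114 and age 1, and leaving out 1 library gave 0 to 4. In AC1903 against WT edgeR called 5, DESeq2 170, no filter 464 and only the 2 groups compared 21, and leaving out 1 library gave 1 to 25. Complement genes called, of 7, were 0 except for 1 with no filter in vehicle against WT (CD55) and 1 in AC1903 against WT (C3), and 0 to 1 when a library was left out in vehicle against WT. Of the 29 other complement IDs, vehicle against WT had 1 with DESeq2, 2 with no filter (C5 and the ID for C4A and C4B) and 0 to 2 without 1 library. No filter gave 1 in AC1903 against vehicle (CFP) and 1 in AC1903 against WT (C5). The cause of these differences was not tested. A library left alone in its group was assumed to vary like the others.

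Some log2 changes turned sign, and the cause was not tested. For C3 in vehicle against WT, limma-voom gave -0.21, upper-quartile scaling -0.025, age -1.31, and leaving out 1 library -0.91 to 0.57, with -0.057 without WT replicate 1. Leaving out 1 library gave -0.70 to 0.076 for CFB and -0.62 to 0.35 for CFD in vehicle against WT, and -0.58 to 0.40 for CFD in AC1903 against WT, each positive only without WT replicate 2. In AC1903 against vehicle, CFD was -0.19 with age and -0.082 to 0.14 without 1 library (-0.055 without vehicle replicate 1). CD55 was -0.061 with age and -0.36 to 0.80 without 1 library (-0.20 without AC1903 replicate 2). CD59 was -0.055 with age and -0.055 to 0.13 without 1 library (-0.024 without vehicle replicate 2). In AC1903 against WT, CFI was -0.064 with limma-voom and -1.45 to 1.09 without 1 library, and SERPING1 -0.091 to 0.14 without 1 library (-0.017 without AC1903 replicate 2). A filter of at least 5 CPM in 2 libraries gave no value for C3, CFD and CFI.

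Groups share replicate numbers, and same-numbered libraries did not deviate together (correlations over genes of -0.04 to 0.00), so no pairing by number was seen. Other links were not checked in this way. WT replicate 1, vehicle replicate 1 and AC1903 replicate 2 came from rats of the same age, 20.4 weeks. With the replicate block edgeR called 4 genes in vehicle against WT and 2 in AC1903 against vehicle, none of them complement genes described here, and C3 in vehicle against WT was -0.20. Depth limits CFI, CFD and C3 most.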

Other observations

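Markers of other cells that a glomerular preparation can hold were summarised in the same way. Of 12 endothelial markers 11 had negative fitted values in vehicle against WT (median log2 change -0.35), and the median was 0.23 in AC1903 against vehicle (0.051 without AC1903 replicate 1) and -0.13 in AC1903 against WT (0.039 without AC1903 replicate 2). All 19 proximal tubule markers were positive in vehicle against WT (median 1.33, DESeq2 called 14 and edgeR none, with 18 at an unadjusted edgeR p under 0.05, where the shares over all genes were 4.22% and 11.9%). This median was 0.76 without vehicle replicate 2. It was -0.36 in AC1903 against vehicle, but 0.060 without vehicle replicate 2, and 0.93 in AC1903 against WT, but 0.56 without WT replicate 2. The 17 podocyte markers had medians of -0.13 in vehicle against WT (-0.71 and 0.16 without vehicle replicates 1 and 2), 0.02 in AC1903 against vehicle (0.50 and -0.38 without the same) and -0.17 in AC1903 against WT (0.0069 and -0.41 without AC1903 replicates 1 and 2).

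For the smaller lists the median is given for vehicle against WT and then for AC1903 against vehicle, with its range when 1 library was left out in brackets. The 6 lymphocyte markers had -0.68 (-0.82 to -0.41) and 0.55 (0.36 to 0.82), and the 4 neutrophil and mast cell markers -1.72 (-1.89 to -1.42) and 2.09 (1.52 to 2.09). Of the 4, KIT alone went the other way, at 0.66 and -0.22. Of the lymphocyte markers CD8A alone was positive in vehicle against WT (0.41) and CD79B alone negative in AC1903 against vehicle (-2.59). DESeq2 called 1 of the 6 in AC1903 against vehicle, CD4 (edgeR log2 change 1.87, DESeq2 adjusted p = 0.00913), and 0.423% of all genes. The 14 markers of the loop, distal tubule and collecting duct had 0.07 (-0.15 to 0.24) and 0.54 (0.18 to 0.56). The 7 mesangial and smooth muscle markers had -0.16 (-0.40 to -0.026) and -0.49 (-0.63 to -0.050), and the 8 parietal epithelial markers 0.74 (0.064 to 0.92) and -0.35 (-0.60 to -0.012). In vehicle against WT 6 parietal markers were positive and 2 negative, KRT18 among the latter at -1.785. There DESeq2 called 3 parietal markers higher (CLDN2, KRT8 and PAX8) and 1 mesangial marker lower (DES), against 4.22% of all genes. EdgeR called none of these markers. The 11 hepatocyte and blood markers had -2.02 (-2.58 to -1.47) and 1.84 (-1.60 to 2.72), the last negative value being without AC1903 replicate 1. These markers did not move together. In vehicle against WT 3 were positive, FGA (1.82), APOB (1.73) and FGB (0.55), and 8 negative, among them HBB gene IDs at -2.58 and -2.27. In AC1903 against vehicle 7 were positive and 4 negative, the latter being FGA, APOB, FGB and FGG. HBA1 was at 0 in vehicle replicate 1 and AC1903 replicate 2, FGG in vehicle replicate 2 and 1 of the HBB gene IDs in AC1903 replicate 2. The 3 adipocyte markers, of the cell type that secretes CFD, had -0.18 (-0.25 to -0.12) and 0.46 (0.16 to 0.62).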
